A study of Mus musculus with 13 samples.

Results

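The genes described here are the enteroendocrine transcription factors Neurog3, Neurod1, Pax4, Pax6, Isl1, Nkx2-2, Insm1 and Rfx6, together with Pcsk1, an enzyme of mature hormone cells. They were chosen by symbol from the 2 deposited count tables and joined by Ensembl identifier. All 9 were found among the 21420 genes listed in both tables. Enteroendocrine cells are the scattered hormone-secreting cells of the gut epithelium, and they arise in crypts from secretory progenitors that briefly switch on the basic helix-loop-helix factor Neurog3. Neurog3 is known to start a cascade of further factors that fix the endocrine fate and the choice of hormone, and Pcsk1 cuts the prohormones into active peptides. Eed and Ezh2 are subunits of Polycomb repressive complex 2 (PRC2), which methylates histone H3 at silenced developmental genes and is known to occupy CpG-rich gene starts.

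The 13 RNA-seq libraries of mouse small intestine fall into 5 groups. Crypts, the epithelial pockets that hold stem and Paneth cells, were collected from Eed-/- (Eed KO, n = 3), Ezh2-/- (Ezh2 KO, n = 3) and WT mice (n = 3) on a mixed C57BL/6-FVB background. These mice were 6 weeks old when beta-naphthoflavone was started and received it for 6 weeks, WT included. Crypt-derived organoids, which are epithelial cultures in Matrigel, were of Eed KO (n = 2, strain label C57BL/6-FVB) and WT origin (n = 2, strain label FVB), and all 4 cultures received the compound for 10 days. Beta-naphthoflavone induces AhCre, a recombinase that deletes floxed alleles in the intestinal epithelium. Labels name AhCre for every organoid and every run 440 crypt, controls included. Run 385 held 2 Eed KO crypts, 2 WT crypts and all organoids, and run 440 held 1 Eed KO crypt, 1 WT crypt and all 3 Ezh2 KO crypts. Libraries are named by run and title number, as in 385_1. Nothing in the labels ties a group's libraries to different mice or different cultures, so the p-values measure the spread between libraries, which may be technical.

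Depth ran from 11421666 to 18300644 counts per library, and 3.71% to 18.0% of counts were mitochondrial. This share was 16.5%, 18.0% and 3.71% in Eed KO crypts 385_1, 385_2 and 440_1. In WT crypts 385_1, 385_2 and 440_1 it was 12.4%, 14.5% and 8.66%, and its part in the values below was not tested. The targeted genes fell with the labels. Eed averaged 18.9 ± 4.94 CPM in Eed KO crypts and 54.5 ± 5.18 CPM in WT crypts (SD, n = 3 each), and 24.9 ± 7.98 CPM in Eed KO organoids against 67.8 ± 7.74 CPM in WT organoids (SD, n = 2 each). Ezh2 averaged 19.3 ± 2.23 CPM in Ezh2 KO crypts and 86.03 ± 12.2 CPM in WT crypts (SD, n = 3 each). It was also lower in Eed KO crypts, at 45.6 ± 10.6 CPM (log2 fold change -0.92, adjusted p = 0.00212 in edgeR). In Eed KO against WT organoids the Ezh2 fold was -0.10 (adjusted p = 0.616 in edgeR). Epithelial markers (7 genes, among them Epcam and Vil1) summed to 3749, 3331 and 6428 CPM in Eed KO crypts 385_1, 385_2 and 440_1. WT crypts had 5193 to 6470 CPM and Ezh2 KO crypts 6450 to 7252 CPM. Organoids had 5791 to 6162 CPM in Eed KO and 5303 to 5502 CPM in WT. 3 of the 7 (Epcam, Krt20 and Cdx2) fell in Eed KO against WT crypts at adjusted p under 0.05 in edgeR, and 0 rose. Of all genes, 10.6% fell and 13.4% rose. With the run left out of the model, Epcam (adjusted p = 0.0524) and Krt20 (0.441) did not pass. With the run and title number as a replicate block, the adjusted p was 0.0831 for Epcam and 0.0682 for Krt20. Krt20 was also lost without Eed KO 385_1 (adjusted p = 0.11) or Eed KO 385_2 (0.0729). Within run 440 alone the log2 fold changes were -0.48 for Epcam, -0.38 for Krt20 and -0.64 for Cdx2. Xist, a female-specific transcript, and the Y-linked Ddx3y showed a male pattern in both WT crypts of run 385 and in both Eed KO organoids, and a female pattern in the other 9 libraries, so genotype and sex cannot be told apart in organoids or within run 385. Levels below are CPM, counts scaled to library size, with library sizes adjusted by the trimmed mean of M-values (TMM).

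The starts of these genes differ in base composition, and a few are shown here because PRC2 is known for CpG-rich starts, although no binding was measured. RefSeq (GRCm38.p6) gave 8 promoter windows of 300 bases, from 250 before to 50 after the start, for 7 of the genes. The windows printed are those of Neurog3, which fell in Eed KO crypts, of Pax6, which rose most in both tissues, of Isl1, which rose in Eed KO organoids, and of Pcsk1, whose direction turned between tissues. CpG pairs are in capitals.
Neurog3, chr10:62132840-62133139, plus strand: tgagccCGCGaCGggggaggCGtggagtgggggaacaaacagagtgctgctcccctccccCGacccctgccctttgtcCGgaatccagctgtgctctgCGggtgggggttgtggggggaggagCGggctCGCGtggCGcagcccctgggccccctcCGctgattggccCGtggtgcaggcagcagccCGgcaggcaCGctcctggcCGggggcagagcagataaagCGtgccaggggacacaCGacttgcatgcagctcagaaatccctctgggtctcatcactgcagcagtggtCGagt
Pax6, first start, chr2:105668646-105668945, plus strand: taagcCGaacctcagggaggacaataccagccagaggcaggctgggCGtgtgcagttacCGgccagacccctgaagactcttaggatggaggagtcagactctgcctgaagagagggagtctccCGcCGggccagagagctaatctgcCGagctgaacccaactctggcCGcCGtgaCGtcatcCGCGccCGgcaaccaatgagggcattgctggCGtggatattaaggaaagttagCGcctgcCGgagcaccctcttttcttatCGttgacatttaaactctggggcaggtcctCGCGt
Pax6, second start, chr2:105682213-105682512, plus strand: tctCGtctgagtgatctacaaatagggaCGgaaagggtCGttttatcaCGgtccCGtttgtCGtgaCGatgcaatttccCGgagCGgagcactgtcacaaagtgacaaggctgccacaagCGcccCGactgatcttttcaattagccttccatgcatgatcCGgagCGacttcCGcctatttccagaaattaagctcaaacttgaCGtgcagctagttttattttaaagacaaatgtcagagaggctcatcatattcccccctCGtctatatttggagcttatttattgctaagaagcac
Isl1, chr13:116309639-116309938, minus strand: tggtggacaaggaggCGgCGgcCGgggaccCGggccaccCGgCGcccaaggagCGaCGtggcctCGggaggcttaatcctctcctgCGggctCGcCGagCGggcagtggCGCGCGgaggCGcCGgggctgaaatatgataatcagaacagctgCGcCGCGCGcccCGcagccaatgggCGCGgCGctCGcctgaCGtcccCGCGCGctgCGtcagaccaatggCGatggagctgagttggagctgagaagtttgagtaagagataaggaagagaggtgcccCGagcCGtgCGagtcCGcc
Pcsk1, chr13:75089607-75089906, plus strand: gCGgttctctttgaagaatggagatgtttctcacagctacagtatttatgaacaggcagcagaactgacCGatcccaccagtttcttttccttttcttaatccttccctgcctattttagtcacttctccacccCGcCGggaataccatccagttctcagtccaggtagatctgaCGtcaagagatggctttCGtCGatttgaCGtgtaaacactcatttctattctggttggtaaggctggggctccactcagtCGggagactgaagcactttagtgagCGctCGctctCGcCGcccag
Isl1 held 37 CpG pairs, at percentile 94.4 of the 32841 windows of all genes, whose median was 7 with quartiles of 3 and 20. The Neurod1 window held 26 and the Neurog3 window 19. The Pax6 windows held 18 and 16, and those of Nkx2-2 and Pcsk1 held 17 and 13. Rfx6 held 2 CpG pairs, at percentile 14.1, and was the only window of these genes below the median of all windows. That window (chr10:51685268-51685567, plus strand) lies inside the gene, whose annotated span begins at 51677756. The Nkx2-2 window (chr2:147186353-147186652, minus strand) also lies inside its gene, annotated at 147177546-147194243. The outer annotated starts of these genes were not examined.

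2 motifs were searched on both strands of these windows. The E-box CANNTG, the kind of site that Neurog3 and Neurod1 bind, was found in the windows of Neurog3, Neurod1, Isl1, Rfx6 and Nkx2-2 and in the second Pax6 window, and 72.3% of all windows hold it. Nkx2-2 held 3 copies and the others 1 each. TNAAGTG, the core that NK2 homeodomain factors such as Nkx2-2 recognise, occurred once each in the windows of Nkx2-2 and Pcsk1, against 11.5% of all windows. These letters describe the windows only.

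Where the counts of these genes could hold reads of a neighbour, the neighbour was checked, since the sources used here do not say whether counting used the strand. Neurog3 (chr10:62133090-62134763) shares 273 exon bases with Fam241b on the opposite strand, and reads there cannot be told apart if counting ignored the strand. Fam241b had 157, 182 and 386 counts in Eed KO crypts 385_1, 385_2 and 440_1, where Neurog3 had 39, 22 and 79, and Fam241b had 193, 141 and 333 counts in WT crypts 385_1, 385_2 and 440_1, where Neurog3 had 150, 116 and 164. Neurod1 (chr2:79452521-79456751) shares 201 with Cerkl on its own strand, which had 21, 29 and 5 counts in Eed KO crypts and 6, 4 and 11 in WT crypts. Pax6 (chr2:105668900-105697364) shares no exon base with its antisense gene Pax6os1, which had 8, 17 and 25 counts in Eed KO crypts, 0, 1 and 1 in Ezh2 KO crypts and 2, 3 and 2 in WT crypts. In organoids Pax6os1 had 16 and 17 counts in Eed KO and 1 and 0 in WT, so it was high in the same groups as Pax6, where Pax6 had 268 to 335 counts. Nkx2-2 (chr2:147177546-147194243) shares 278 exon bases with Nkx2-2os, which had at most 5 counts in any library.

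**Figure D1:**
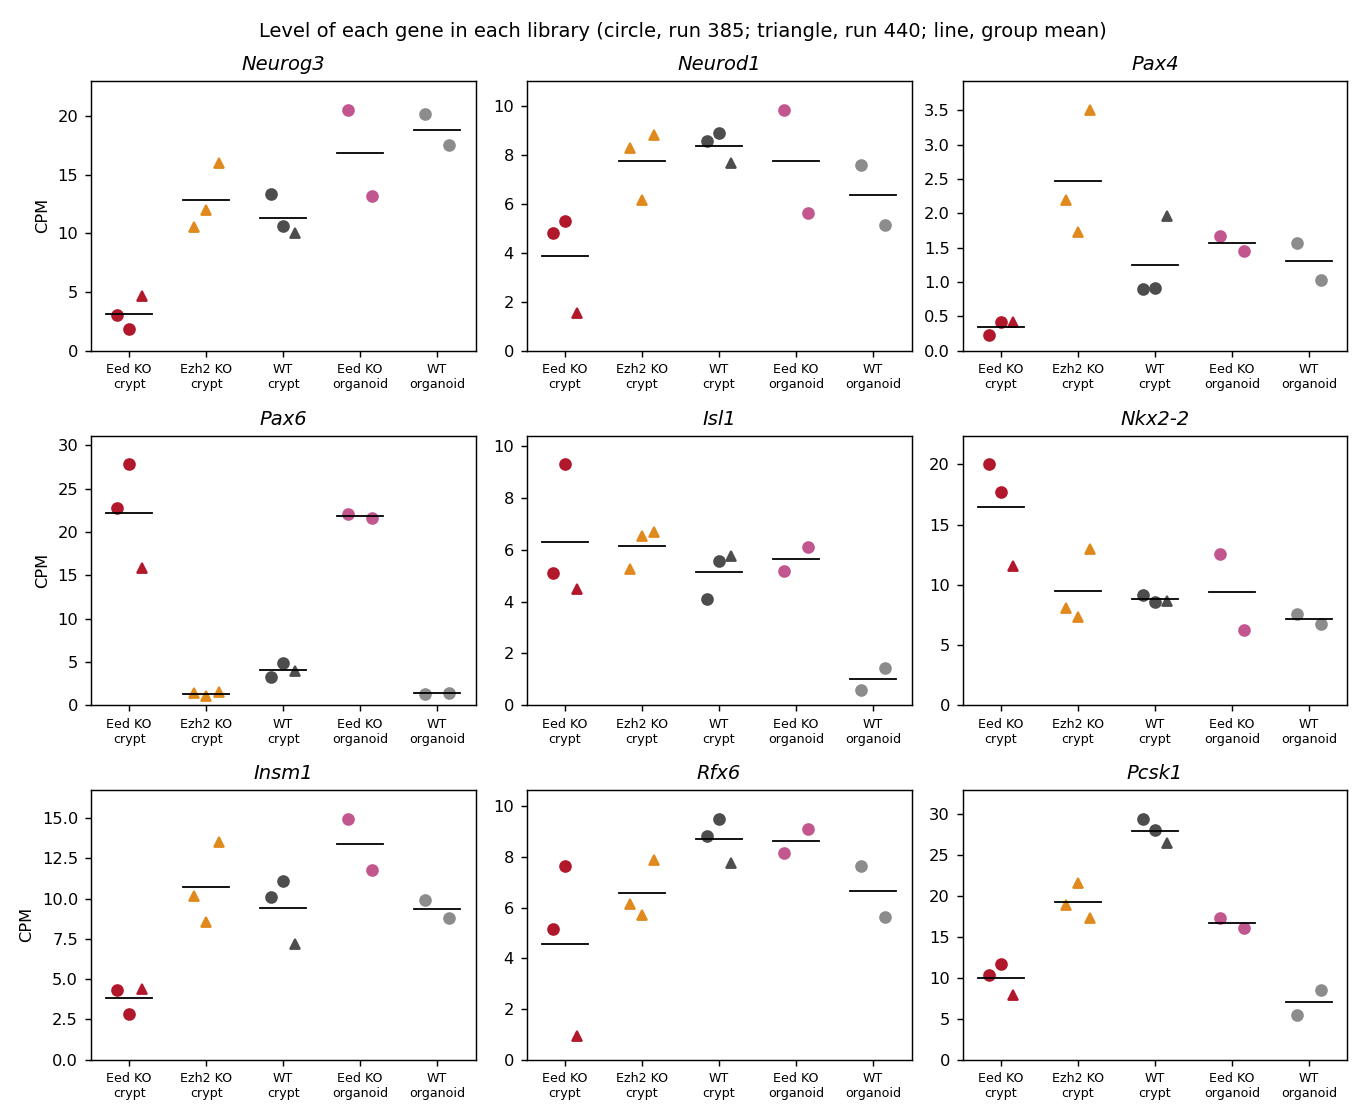
CPM of each gene (vertical axes, linear, TMM-adjusted) in each of the 13 libraries, by group; circles are run 385, triangles run 440 and lines group means. Pax6 sits at 15.8 to 27.8 CPM in every Eed KO library and at 4.94 CPM or less in every other library, and Pcsk1 is lower in Eed KO than in WT crypts and higher in Eed KO than in WT organoids.

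Eed KO crypts had less of most of these transcripts and more of Pax6 and Nkx2-2. 5 of the 9 genes fell against WT crypts (Neurog3, Neurod1, Pax4, Insm1 and Pcsk1) and 2 rose (Pax6 and Nkx2-2) at adjusted p under 0.05 in edgeR's quasi-likelihood test, which is what a call means below. Of all 14406 genes tested, 10.6% fell and 13.4% rose, so the count that rose is near the background and the count that fell is above it. The median log2 fold change was -1.25 over the 9 genes and -0.04 over all genes. In bulk RNA, fewer cells of a type and less RNA per cell cannot be told apart. All p-values printed for this comparison share the WT crypts with the Ezh2 KO comparison.

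Neurog3, the switch of the lineage, had 3.01, 1.83 and 4.65 CPM in Eed KO crypts 385_1, 385_2 and 440_1, against 13.4, 10.6 and 10.04 CPM in WT crypts 385_1, 385_2 and 440_1. The groups did not overlap, and the lowest WT library was above the highest Eed KO library. The log2 fold change was -1.86 ± 0.33 (SE, adjusted p = 0.0043). It was -2.30 within run 385 and -0.98 within run 440, where 1 library of each genotype was compared and the call was lost (adjusted p = 0.187). With the run and title number as a replicate block it was -1.91 (adjusted p = 0.0406).

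Of the 7 other factors, Neurod1, Pax4 and Insm1 fell, Pax6 and Nkx2-2 rose, and Isl1 and Rfx6 were not called. Neurod1, a helix-loop-helix factor directly downstream of Neurog3, had 4.79, 5.31 and 1.53 CPM in Eed KO crypts, against 8.57, 8.87 and 7.65 CPM in WT crypts, a log2 fold change of -1.25 ± 0.35 (adjusted p = 0.0307). Every Eed KO library was below every WT library, and library 440_1 was the lowest by far. The fold was -0.79 within run 385 and -2.19 within run 440. Pax4, a paired homeodomain factor that several endocrine subtypes need, was scarce, with 3, 5 and 7 counts (0.232, 0.415 and 0.412 CPM) in Eed KO crypts and 10, 10 and 32 counts (0.892, 0.914 and 1.96 CPM) in WT crypts. These groups did not overlap, but the WT library of run 440 was well above those of run 385. Its log2 fold change was -1.76 ± 0.48 (adjusted p = 0.0282). Insm1, a zinc-finger factor of endocrine precursors, had 4.32, 2.82 and 4.42 CPM in Eed KO crypts and 10.08, 11.06 and 7.16 CPM in WT crypts, a log2 fold change of -1.25 ± 0.30 (adjusted p = 0.0156). It was -1.56 within run 385 and -0.57 within run 440. The groups were again apart.

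These calls rested on few libraries. With the replicate block the adjusted p was 0.133 for Neurod1 (log2 fold change -1.27), 0.102 for Pax4 (-1.78), 0.0933 for Insm1 (-1.28) and 0.0959 for Nkx2-2 (0.86), so 1 gene rose and 2 fell under it. Without Eed KO 385_1 the call was lost for Neurod1 (-1.33, adjusted p = 0.0544), Pax4 (-1.63, 0.0906), Insm1 (-1.31, 0.0643) and Nkx2-2 (0.78, 0.123). Without WT 385_2 it was lost for the same 4 genes, at -1.41 (adjusted p = 0.0633) for Neurod1, -1.82 (0.0732) for Pax4, -1.15 (0.0641) for Insm1 and 0.78 (0.168) for Nkx2-2. Without WT 440_1 it was lost for Neurod1 (-0.77, adjusted p = 0.0777) and Pax4 (-1.45, 0.124). Without WT 385_1 it was lost for Pax4 (-1.82, adjusted p = 0.0543) and Nkx2-2 (0.84, 0.11), without Eed KO 385_2 for Nkx2-2 (0.87, 0.088), and without Eed KO 440_1 for Pax4 (-1.52, 0.102). Without the run term it was lost for Neurod1 (-1.09, adjusted p = 0.124) and Nkx2-2 (0.92, 0.0651).

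Pax6, a paired homeodomain factor that activates the glucagon gene, moved the other way. It had 22.8, 27.8 and 15.8 CPM in Eed KO crypts, against 3.30, 4.94 and 3.92 CPM in WT crypts. The lowest Eed KO library was above the highest WT library, and the log2 fold change was 2.43 ± 0.26 (adjusted p = 0.000478). It was 2.61 within run 385 and 2.14 within run 440. The call held under all 15 alternatives, with log2 fold changes of 2.14 to 2.64.

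Nkx2-2, an NK2 homeodomain factor of endocrine precursors, had 20.0, 17.7 and 11.6 CPM in Eed KO crypts and 9.19, 8.59 and 8.63 CPM in WT crypts. The WT libraries were close together and all below the Eed KO ones. The log2 fold change was 0.88 ± 0.27 (adjusted p = 0.0428), with 1.08 within run 385 and 0.55 within run 440. Isl1, a LIM homeodomain factor of several hormone cell types, had 5.10, 9.30 and 4.48 CPM in Eed KO crypts and 4.11, 5.58 and 5.75 CPM in WT crypts. Those groups overlapped, and the log2 fold change was 0.28 with a 95% interval of -0.48 to 1.03 (adjusted p = 0.599).

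Rfx6, a winged-helix factor that acts with Neurog3 in endocrine differentiation, had 5.17, 7.64 and 0.942 CPM in Eed KO crypts and 8.83, 9.51 and 7.77 CPM in WT crypts. All Eed KO libraries were below the WT range, and library 440_1 stood far below the other 2 with 16 counts. The log2 fold change was -1.23 ± 0.49 (adjusted p = 0.105), with -0.53 within run 385. Within run 440 it was -2.91 (adjusted p = 0.0232), and the DESeq2 Wald test gave -1.27 (adjusted p = 0.0289).

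Pcsk1, the convertase that releases peptide hormones from their precursors, had 10.3, 11.7 and 7.95 CPM in Eed KO crypts, against 29.4, 28.0 and 26.4 CPM in WT crypts. Every Eed KO library was below every WT library by a wide margin. The log2 fold change was -1.48 ± 0.17 (adjusted p = 0.000581), with -1.39 within run 385 and -1.61 within run 440. The call held under all 15 alternatives, with log2 fold changes of -1.61 to -1.27.

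**Figure D2:**
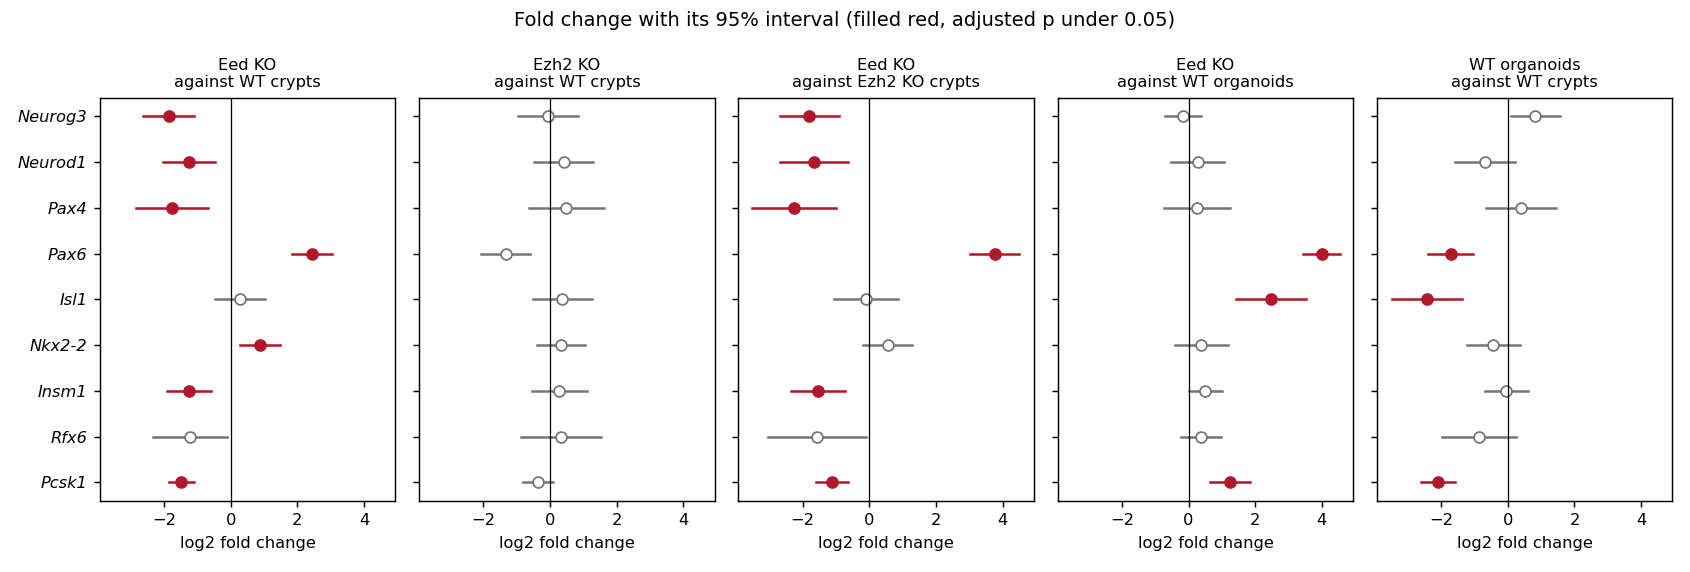
Log2 fold change of each gene in the 5 comparisons (horizontal axes), with its 95% interval from the edgeR fit; filled red points have adjusted p under 0.05. In the first panel Pax6 and Nkx2-2 are filled right of 0 and 5 genes are filled left of it, and in the Ezh2 KO panel no gene is filled.

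Ezh2 KO crypts showed none of these changes at the threshold. 0 of the 9 genes rose and 0 fell against WT crypts, beside 0% and 0.0208% of all 14406 genes, which is 0 and 3 genes. At an unadjusted p under 0.05, 1179 genes passed, and Pax6 was the only such gene of the 9. The DESeq2 Wald test also called none of the 9. With the run as a term, this comparison leans on the single WT library of run 440.

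Neurog3 had 10.6, 11.96 and 15.995 CPM in Ezh2 KO crypts, around the 10.04 to 13.4 CPM of WT crypts, with a log2 fold change of -0.06 and a 95% interval of -0.96 to 0.83. Insm1 had 10.1, 8.57 and 13.5 CPM in Ezh2 KO crypts, where WT crypts had 7.16 to 11.06 CPM. Pax4 had 2.19, 1.73 and 3.50 CPM in Ezh2 KO crypts, against 1.96 CPM in the WT library of that run. All these ranges overlapped those of WT.

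Pax6 had 1.44, 1.09 and 1.53 CPM in Ezh2 KO crypts, against 3.30 to 4.94 CPM in WT crypts. It was lower in each Ezh2 KO library, which is the direction opposite to Eed KO, but the log2 fold change of -1.33 (95% interval -2.06 to -0.60, unadjusted p = 0.00263) did not pass adjustment (adjusted p = 0.562). Pcsk1 had 18.9, 21.5 and 17.3 CPM in Ezh2 KO crypts, against 26.4 to 29.4 CPM in WT crypts. The ranges were apart, and the log2 fold change was -0.35 (95% interval -0.80 to 0.10, adjusted p = 0.654). Isl1 had 5.26 to 6.69 CPM in Ezh2 KO crypts and 4.11 to 5.75 CPM in WT crypts, and Nkx2-2 had 7.29 to 13.0003 CPM in Ezh2 KO crypts and 8.59 to 9.19 CPM in WT crypts. Both overlapped, with log2 fold changes of 0.37 for Isl1 and 0.33 for Nkx2-2. For Neurod1 and Rfx6, which overlapped WT as well, the sign depended on the run term. Neurod1 averaged 7.73 ± 1.405 CPM in Ezh2 KO crypts and 8.36 ± 0.634 CPM in WT crypts (SD, n = 3 each), and its log2 fold change was 0.41 with the run term and -0.13 without it. Rfx6 averaged 6.58 ± 1.17 CPM in Ezh2 KO crypts and 8.70 ± 0.874 CPM in WT crypts, with 0.34 with the run term, -0.42 without it and -0.21 within run 440, so no direction is read for either gene.

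The 2 knockouts were then compared directly. Against Ezh2 KO crypts, 1 of the 9 genes rose in Eed KO crypts (Pax6) and 5 fell (Neurog3, Neurod1, Pax4, Insm1 and Pcsk1), beside 12% and 8.05% of all genes. This comparison uses the same Eed KO libraries as the one against WT, so it is no independent repeat of it. Pax6 differed by a log2 fold change of 3.76 ± 0.32 (adjusted p = 0.000295) and Neurog3 by -1.80 ± 0.39 (adjusted p = 0.0144), and both calls held under all 12 alternatives. Pcsk1 differed by -1.12 ± 0.21 (adjusted p = 0.00797), Insm1 by -1.53 ± 0.36 (0.0188), Pax4 by -2.26 ± 0.56 (0.0231) and Neurod1 by -1.66 ± 0.45 (0.0334).

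Some of these differences depended on library Eed KO 440_1, the only Eed KO library in the run of the Ezh2 KO crypts. Without it the adjusted p was 0.0551 for Pcsk1 (-1.003), 0.15 for Pax4 (-1.88) and 0.187 for Neurod1 (-0.88). Without Ezh2 KO 440_3 it was 0.0532 for Insm1 (-1.34), 0.0619 for Pax4 (-1.93) and 0.0748 for Neurod1 (-1.57), and without Ezh2 KO 440_1 it was 0.0553 for Neurod1 (-1.62). Within run 440 alone Insm1 was at -1.19 (adjusted p = 0.0729) and Rfx6 at -2.70 (adjusted p = 0.0117), where the full fit gave Rfx6 at -1.56 (adjusted p = 0.124) and the DESeq2 Wald test -1.61 (adjusted p = 0.0269). Neurod1 without the run term was at -0.96 (adjusted p = 0.138).

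In organoids Pax6, Isl1 and Pcsk1 were higher in Eed KO, and Neurog3, Neurod1, Pax4, Nkx2-2, Insm1 and Rfx6 were not called. The Eed KO organoids carry the C57BL/6-FVB label and the male pattern and the WT organoids the FVB label and the female pattern, so genotype, strain and sex cannot be told apart in this comparison. 3 of the 9 genes rose against WT organoids and 0 fell, beside 13.5% and 4.63% of the 12958 genes tested. At an unadjusted p under 0.05 the count was also 3 of 9, and the DESeq2 Wald test gave 3 and 0. The median log2 fold change was 0.38 over the 9 genes and -0.005 over all genes.

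Pax6 had 22.1 and 21.6 CPM in Eed KO organoids, against 1.35 and 1.37 CPM in WT organoids. The libraries of each genotype lay almost on each other and the genotypes were far apart, with a log2 fold change of 3.99 ± 0.23 (adjusted p = 0.000115). Isl1 had 5.19 and 6.12 CPM in Eed KO organoids, against 0.600 and 1.45 CPM in WT organoids, which is 8 and 17 counts. The WT libraries were low, and the log2 fold change was 2.47 ± 0.44 (adjusted p = 0.00926). Both calls held under all 9 alternatives.

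Pcsk1 had 17.3 and 16.04 CPM in Eed KO organoids, against 5.47 and 8.56 CPM in WT organoids. The Eed KO libraries were both above the WT ones, the reverse of the order in crypts. The log2 fold change was 1.25 ± 0.26 (adjusted p = 0.0155), and without WT organoid 385_1, the lower of the WT pair, it was 0.94 (adjusted p = 0.0631).

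Neurog3 had 20.5 and 13.2 CPM in Eed KO organoids and 20.2 and 17.5 CPM in WT organoids, a log2 fold change of -0.17 with a 95% interval of -0.71 to 0.37 (adjusted p = 0.684). The genotypes overlapped. Neurod1 had 9.83 and 5.64 CPM in Eed KO organoids against 7.57 and 5.13 CPM in WT organoids, and its ranges overlapped too. Pax4 (1.68 and 1.45 CPM in Eed KO, 1.57 and 1.03 CPM in WT) and Nkx2-2 (12.5 and 6.29 CPM in Eed KO, 7.57 and 6.76 CPM in WT) also overlapped.

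Insm1 had 14.9 and 11.8 CPM in Eed KO organoids, against 9.90 and 8.81 CPM in WT organoids. Its genotypes were apart, but the log2 fold change of 0.50 (95% interval -0.00003 to 1.01) was not called (adjusted p = 0.165). Rfx6 had 8.15 and 9.11 CPM in Eed KO organoids against 7.65 and 5.65 CPM in WT organoids, a log2 fold change of 0.37 (adjusted p = 0.394). With 2 libraries a group, these intervals leave room for moderate changes in either gene.

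The effect of Eed loss was compared between tissues as an interaction over all 13 libraries. It was higher in organoids than in crypts for 3 of the 9 genes (Pcsk1, Insm1 and Pax6) and lower for 0, beside 2.99% and 1.13% of the 14761 genes tested by edgeR. At an unadjusted p under 0.05, 8 of the 9 passed, and the DESeq2 Wald test called 5 higher and 0 lower. The median difference was 1.69 over the 9 genes and 0.14 over all genes, on the log2 scale. Induction time differed with the tissue. The strain label and the sex pattern set Eed KO apart from WT within organoids, while all crypts shared 1 strain label. Within run 385 crypts the sex pattern also went with genotype, female in Eed KO and male in WT, the reverse of organoids. The tissue difference cannot be told apart from these, within run 385 included.

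Pcsk1 changed direction, with a fold of 1.25 in organoids and -1.48 in crypts on the log2 scale. The difference was 2.73 ± 0.30 (adjusted p = 0.00116), it held under all 15 alternatives, and it was 2.60 within run 385 alone. Insm1 differed by 1.76 ± 0.41 (adjusted p = 0.0379) and Pax6, which rose in both tissues, by 1.57 ± 0.37 (adjusted p = 0.0403). Pax6 averaged 21.9 CPM in Eed KO organoids and 22.1 CPM in Eed KO crypts. WT organoids had 1.36 CPM and WT crypts 4.05 CPM, so the Pax6 difference lay in the WT levels. Within run 385 Insm1 differed by 2.04 and Pax6 by 1.35.

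The calls for Insm1 and Pax6 were less firm. Without any 1 of the 4 organoid libraries both were lost, with adjusted p of 0.0686 to 0.159 for Insm1 (differences of 1.58 to 1.93) and of 0.102 to 0.171 for Pax6 (1.56 to 1.59). Without Eed KO crypt 385_1 they stood at 1.78 (adjusted p = 0.0836) for Insm1 and 1.49 (0.0897) for Pax6, and without WT crypt 385_2 at 1.61 (0.115) and 1.43 (0.119). Insm1 was also lost without Eed KO crypt 385_2 (1.48, adjusted p = 0.0711) and without WT crypt 385_1 (1.68, 0.0807), and Pax6 without Eed KO crypt 440_1 (1.35, 0.0504) and without WT crypt 440_1 (1.34, 0.0508). With library totals in place of TMM the adjusted p was 0.0649 for Insm1 and 0.056 for Pax6, and with DESeq2 size factors it was 0.0506 for Pax6.

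For the other 6 genes the difference did not pass. Neurog3 differed by 1.69 ± 0.47 (adjusted p = 0.0684), Isl1 by 2.19 ± 0.59 (0.0637), Pax4 by 2.02 ± 0.65 (0.117), Rfx6 by 1.59 ± 0.66 (0.236), Neurod1 by 1.52 ± 0.54 (0.155) and Nkx2-2 by -0.49 ± 0.47 (0.698). Neurog3 passed within run 385 alone (2.11, adjusted p = 0.0112), without Eed KO crypt 440_1 (2.11, 0.0109) and without WT crypt 440_1 (2.09, 0.0115), and Isl1 without Eed KO crypt 385_2 (2.52, adjusted p = 0.037). Both genes passed in the DESeq2 Wald test (adjusted p = 0.0154 for Neurog3 and 0.012 for Isl1). Isl1 averaged 5.66 CPM in Eed KO organoids and 6.29 CPM in Eed KO crypts. WT organoids had 1.03 CPM of it and WT crypts 5.14 CPM. A difference that misses the threshold here does not show that the effects were alike.

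**Figure D3:**
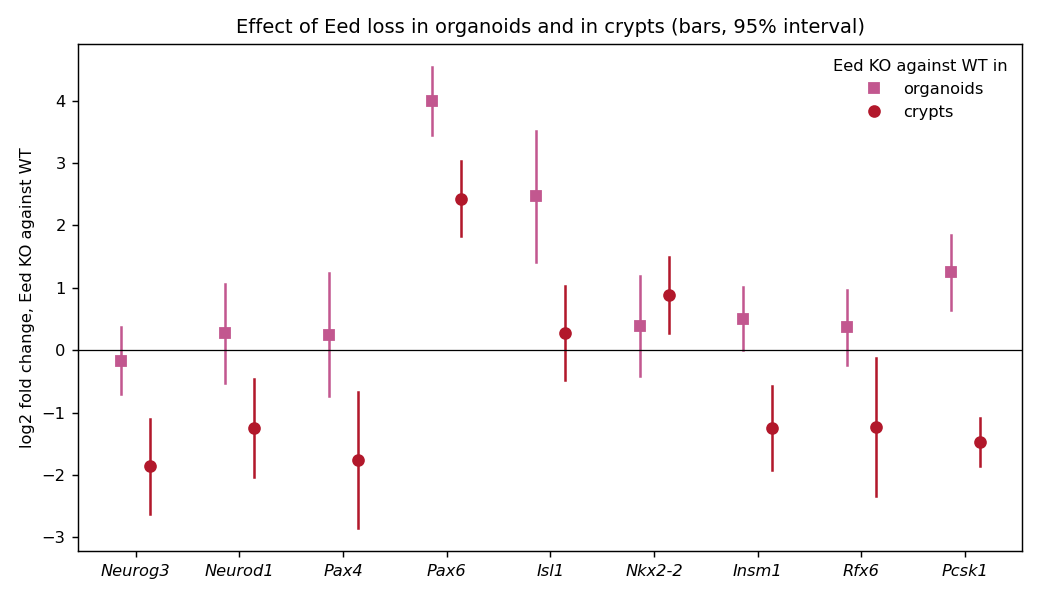
Log2 fold change, Eed KO against WT (vertical axis), of each gene in organoids (squares) and crypts (circles), with 95% intervals from the edgeR fit of each tissue. Pcsk1 lies above 0 in organoids (1.25) and below 0 in crypts (-1.48), and Pax6 lies above 0 in both (3.99 and 2.43).

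Between the WT groups, organoids had less Pcsk1, Pax6 and Isl1 than crypts. Against WT crypts, 0 of the 9 genes rose in WT organoids and 3 fell (Pcsk1, Pax6 and Isl1), beside 9.17% and 18.9% of all genes. At an unadjusted p under 0.05, 4 of the 9 passed. These WT libraries are also the controls of the comparisons above. Culture, induction time and strain label differed along with the tissue. The sex pattern was female in the WT organoids and male in the WT crypts of run 385. None of these can be told apart from the tissue, within run 385 included. Pcsk1 averaged 7.02 ± 2.18 CPM in WT organoids (SD, n = 2) and 27.9 ± 1.49 CPM in WT crypts (SD, n = 3), with a log2 fold change of -2.09 ± 0.23 (adjusted p = 9.92e-05). Isl1 averaged 1.03 ± 0.605 CPM in WT organoids and 5.14 ± 0.905 CPM in WT crypts, with -2.42 ± 0.48 (adjusted p = 0.00352), and Pax6 1.36 ± 0.0139 CPM in WT organoids and 4.05 ± 0.825 CPM in WT crypts, with -1.71 ± 0.30 (adjusted p = 0.00185). All 3 calls held under all 10 alternatives, and within run 385 the folds were -2.03 for Pcsk1, -2.25 for Isl1 and -1.59 for Pax6. Neurog3 averaged 18.9 ± 1.86 CPM in WT organoids and 11.3 ± 1.79 CPM in WT crypts, and its fold of 0.83 was not called (adjusted p = 0.0845). It was called without WT crypt 385_1 (1.17, adjusted p = 0.0431) and by the DESeq2 Wald test (0.88, 0.0476).

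Between genes, levels were set in order per kilobase of exon (CPM per kilobase, GENCODE M21 exon lengths), as a description. In Eed KO crypts Nkx2-2 led with 5.71 ± 1.51 and took 33.8% of the sum over the 9 genes, Pax6 came next at 1.89 ± 0.514 (11.2%), and the ranges from Pax6 down to Pax4 overlapped from neighbour to neighbour. Pax4 was last at 0.244 ± 0.0727. In Ezh2 KO crypts Neurog3 led with 7.68 ± 1.68 (29.8%) and Pax6 was last at 0.116 ± 0.020. In WT crypts Neurog3 led with 6.78 ± 1.07 (26.5%), Pcsk1 followed at 4.98 ± 0.266 (19.4%), and Neurod1, Nkx2-2 and Insm1 lay together near 3.04 to 3.06. Pax6 was last in WT crypts, at 0.346 ± 0.0706 and 1.35% of the sum.

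In organoids Neurog3 led in both genotypes, with 10.08 ± 3.09 CPM per kilobase (33.6% of the sum) in Eed KO and 11.3 ± 1.11 (48.4%) in WT. Pax6 took 6.23% of the sum in Eed KO organoids and 0.499%, the last place, in WT organoids. Pax6 has 26 annotated transcripts and 11.7 kilobases of merged exon, so its place depends on the length used. With the longest basic transcript it moved to the second place in Eed KO organoids, while it stayed second in Eed KO crypts and last in the other 3 groups.

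**Figure D4:**
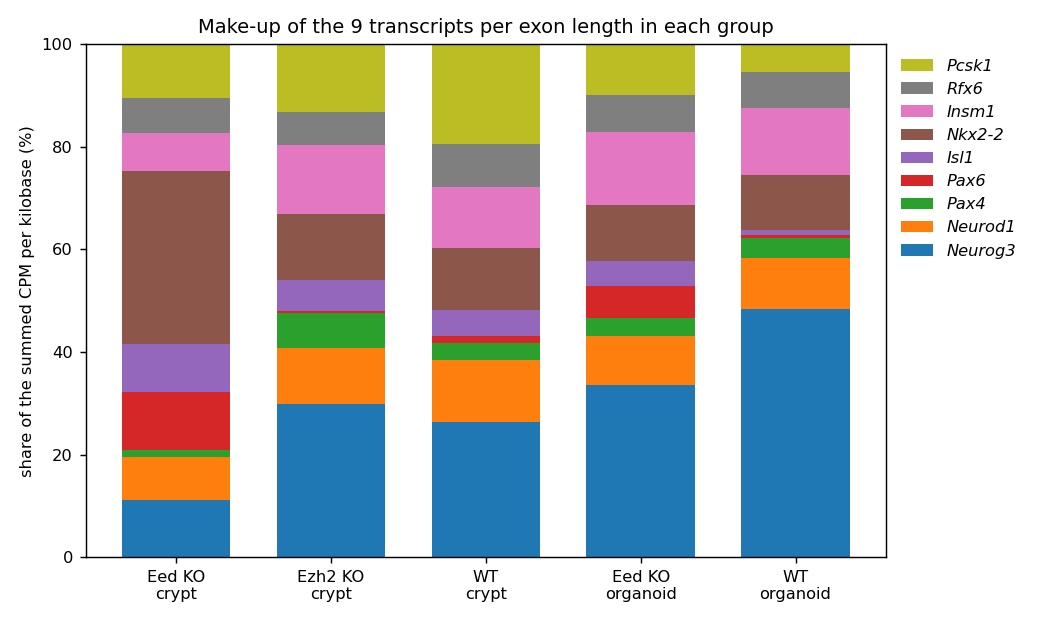
Share of each gene in the summed CPM per kilobase of the 9 genes (vertical axis, percent), as group means. Neurog3 takes 11.2% in Eed KO crypts, 29.8% in Ezh2 KO crypts, 26.5% in WT crypts, 33.6% in Eed KO organoids and 48.4% in WT organoids, while Nkx2-2 takes 33.8% in Eed KO crypts.

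The 9 genes did not share a single profile over the 13 libraries. Likeness was measured as the root mean square difference of log2 CPM profiles, each centred on its own mean, and small values mean alike. The closest pair was Neurod1 and Rfx6 at 0.332, followed by Neurog3 and Insm1 at 0.458. Neurog3 and Pax6 were farthest apart at 2.46. These points share libraries and group differences, so likeness is a description.

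Among all other genes, Neurog3 was closest to Depdc1b (0.349), Fads2 and Fbp1, and Insm1 to E2f7 (0.219), Ska3 and Wee1. Neurod1 was closest to Hyls1 (0.316), Cenpq and Cenpk, and Pax4 to Hmgb3 (0.444), Hmgb2 and Dnaaf1. Pax6 was closest to Slc26a9 (0.426), Prdm8 and Gsc, Isl1 to Rsph1 (0.391), Serpinb9 and Slit1, and Nkx2-2 to Nbdy (0.237), Tcaf1 and Cyren. Pcsk1 was closest to Ldlrad4 (0.35), BC064078 and Cyp39a1.

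The choice of a secretory fate lies upstream of Neurog3, and Spdef was the clearest change among its genes in crypts. Of 12 such genes tested in crypts, 1 rose and 1 fell in Eed KO, beside 13.4% and 10.6% of all genes, so both counts are near the background. The median log2 fold change was 0.11 against -0.04 over all genes. Spdef, a factor of goblet and Paneth cells, averaged 160.1 ± 30.8 CPM in Eed KO crypts and 69.6 ± 8.69 CPM in WT crypts, a log2 fold change of 1.21 ± 0.19 (adjusted p = 0.00262). Dll1, a Notch ligand of secretory precursors, fell by 0.63 on the log2 scale (adjusted p = 0.0236). That call was lost in 8 of 15 alternatives, which include leaving out Eed KO 385_1 (-0.61, adjusted p = 0.118), Eed KO 385_2 (-0.56, 0.0658), WT 385_1 (-0.63, 0.0845) or WT 385_2 (-0.56, 0.0974), and the replicate block (-0.64, 0.101). In Eed KO organoids 2 of 11 rose, Spdef by 1.26 ± 0.16 (adjusted p = 0.00263) and Atoh1, the factor that opens the secretory fate, by 1.05 ± 0.14 (adjusted p = 0.00325), and 0 fell. Of all genes in organoids, 13.5% rose and 4.63% fell. Ezh2 KO crypts had 0 of 12 called.

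Of 16 other enteroendocrine transcription factors tested in Eed KO against WT crypts, 4 rose and 3 fell, beside 13.4% and 10.6% of all genes. Their median log2 fold change was 0.01. Hhex, a homeodomain factor of somatostatin cells, averaged 11.5 ± 1.90 CPM in Eed KO crypts and 1.06 ± 0.349 CPM in WT crypts (log2 fold change 3.47 ± 0.28, adjusted p = 0.000173). Pdx1, a duodenal and pancreatic homeodomain factor, averaged 7.82 ± 1.84 CPM in Eed KO crypts and 1.70 ± 0.874 CPM in WT crypts (2.26 ± 0.39, adjusted p = 0.00361). Lmx1a, a factor of serotonin cells, had a log2 fold change of -2.01 ± 0.39 (adjusted p = 0.00607), and with the replicate block -2.04 (adjusted p = 0.0655). In organoids 4 of 16 rose in Eed KO and 0 fell, beside 13.5% and 4.63% of all genes. Hhex was at 2.75 ± 0.36 (adjusted p = 0.00267) and Prox1, a homeodomain factor of endocrine and tuft cells, at 1.43 ± 0.23 (adjusted p = 0.00652). 0 of 16 were called in Ezh2 KO crypts, and for 0 of 16 did the Eed effect differ between tissues at the threshold. Within run 440 alone, with 1 Eed KO and 1 WT crypt, the calls were lost for Spdef (0.84, adjusted p = 0.0967), Pdx1 (2.07, 0.0809) and Lmx1a (-0.999, 0.205).

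The processing partners of Pcsk1 were mostly higher or uncalled in Eed KO crypts. Of 12 convertases, peptidases and granule enzymes tested, 4 rose in Eed KO crypts and 1 fell, beside 13.4% and 10.6% of all genes. The median log2 fold change was 0.62. Pcsk6, a convertase of the same family, averaged 54.2 ± 13.5 CPM in Eed KO crypts and 3.60 ± 2.78 CPM in WT crypts (4.09 ± 0.46, adjusted p = 0.000559). Pam, which amidates peptide ends, averaged 88.99 ± 8.65 CPM in Eed KO crypts and 27.96 ± 3.98 CPM in WT crypts (1.69 ± 0.17, adjusted p = 0.000368). Pcsk5, a further convertase, had a log2 fold change of -2.28 ± 0.45 (adjusted p = 0.00703), and without Eed KO 385_1 -1.90 (adjusted p = 0.0534), with the block -2.30 (0.0509) and without the run term -1.80 (0.0907).

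In organoids 3 of 11 partners rose in Eed KO and 1 fell, beside 13.5% and 4.63% of all genes. Cpe, the carboxypeptidase that trims the peptides Pcsk1 has cut, averaged 53.9 ± 12.04 CPM in Eed KO organoids and 13.1 ± 0.715 CPM in WT organoids (2.03 ± 0.19, adjusted p = 0.000687). Pam rose by 1.86 ± 0.18 (adjusted p = 0.000822) and Pcsk6 by 1.45 ± 0.15 (adjusted p = 0.00125). Of 12 partners tested for a difference of the Eed effect between tissues, 1 was higher in organoids than in crypts (Cpe, by 1.34 ± 0.29, adjusted p = 0.0257) and 1 was lower (Pcsk6, at -2.62 ± 0.57, adjusted p = 0.0301). Of all genes, 2.99% were higher and 1.13% lower. The call of Pcsk6 was lost without WT crypt 385_2 (-2.65, adjusted p = 0.0779) and without any 1 of the 4 organoid libraries (-2.76 to -2.47, adjusted p of 0.0888 to 0.114). That call of Cpe was lost without Eed KO crypt 385_1 (1.29, adjusted p = 0.063), WT crypt 385_2 (1.32, 0.0682), Eed KO organoid 385_1 (1.10, 0.113), WT organoid 385_1 (1.29, 0.133) or WT organoid 385_2 (1.4, 0.0947).

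The hormone and granule genes, which are the products of these cells, moved in both directions in crypts and in 1 direction in organoids. Of 17 tested in Eed KO against WT crypts, 3 rose and 8 fell, beside 13.4% and 10.6% of all genes, with a median log2 fold change of -0.88. Gcg, the proglucagon gene that Pax6 is known to activate and whose product Pcsk1 cuts, averaged 10.7 ± 12.1 CPM in Eed KO crypts and 72.3 ± 13.3 CPM in WT crypts (-3.29 ± 0.60, adjusted p = 0.00488). Sct, the secretin gene, averaged 160.1 ± 6.12 CPM in Eed KO crypts and 11.01 ± 5.84 CPM in WT crypts (3.98 ± 0.26, adjusted p = 6.78e-05), and Iapp, the amylin gene, was higher by 6.52 ± 0.69 (adjusted p = 0.000444). Over the 15 alternatives Iapp, with 8 counts in all WT crypts, ran from 5.81 to 11.1 and Gcg from -4.35 to -1.35, and both calls held. Sct and Iapp also rose in Eed KO organoids, where Neurog3 was not called, by 2.79 ± 0.22 (adjusted p = 0.000376) for Sct and 6.00 ± 0.71 (adjusted p = 0.0018) for Iapp.

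In organoids 10 of the 17 tested rose in Eed KO and 0 fell, beside 13.5% and 4.63% of all genes, with a median log2 fold change of 1.46. Paneth cell markers moved in both directions in Eed KO organoids. Of 5 tested, 2 rose (Mmp7 and Itln1) and 1 fell (Pla2g2a, log2 fold change -5.74). The Itln1 fold ran from 0.53 to 1.17 over the 9 alternatives, and its call did not hold in all of them. Goblet and tuft cell markers were higher in Eed KO organoids. 3 of 5 goblet cell markers rose and 0 fell (Tff3, Clca1 and Agr2), as did 3 of 4 tuft cell markers (Dclk1, Trpm5 and Avil), with Tff3 at 1.39 ± 0.14 (adjusted p = 0.000849) and Avil at 3.002 ± 0.36 (adjusted p = 0.00191). The call was lost without Eed KO organoid 385_1 for Clca1 (2.41, adjusted p = 0.0716) and Dclk1 (2.49, 0.09996), and without Eed KO organoid 385_2 for Dclk1 (2.62, 0.0675). Sst, the somatostatin gene, averaged 64.8 ± 2.72 CPM in Eed KO organoids and 1.17 ± 0.279 CPM in WT organoids (5.78 ± 0.21, adjusted p = 1.88e-05). The summed level of the 20 listed hormone and granule genes was 1184 to 1396 CPM in Eed KO organoids and 643 to 665 CPM in WT organoids. In crypts it was 442.9 to 690.5 CPM in Eed KO, 814.8 to 1060 CPM in Ezh2 KO and 908.3 to 1011 CPM in WT. Eed KO lay below WT in crypts and above WT in organoids in these sums, as it did for Pcsk1. Ezh2 KO crypts overlapped WT in the sum and not in Pcsk1. Eed KO crypt 440_1 had the highest sum of its group and the lowest Pcsk1. In Eed KO crypts the sum mixes genes that rose, such as Sct, with genes that fell, so it is no count of endocrine cells. How far endocrine cell number enters the values of the 9 genes was not tested.

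**Figure D5:**
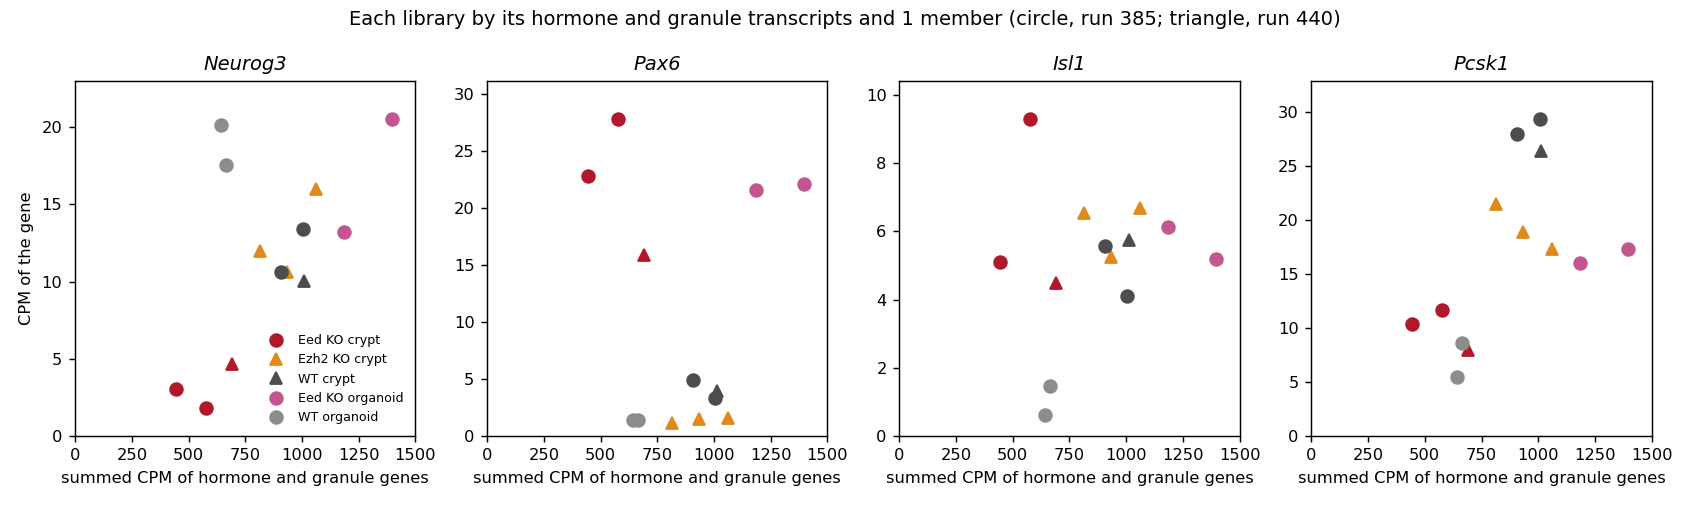
CPM of 4 of the genes (vertical axes) against the summed CPM of 20 hormone and granule genes (horizontal axes) in each of the 13 libraries; colours are groups, circles run 385 and triangles run 440. Pax6 is high in Eed KO libraries both at low sums (442.9 to 690.5 in crypts) and at high sums (1184 to 1396 in organoids), and Neurog3 in WT organoids is high at sums of 643 to 665.

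Other cell types that use some of these factors were checked by marker lists. Markers of enteric neurons and glia (13 genes in the tables) summed to 14.5 to 18.8 CPM in Eed KO crypts, 7.74 to 11.98 CPM in Ezh2 KO crypts and 10.3 to 12.5 CPM in WT crypts. In organoids, which the labels give as epithelial cultures, they summed to 20.4 to 23.3 CPM in Eed KO and 7.72 to 8.39 CPM in WT, with 2 of the 13 at 0 in Eed KO and 7 in WT, Stmn2 in both. Snap25, a vesicle fusion protein that endocrine cells also use, rose by 2.36 ± 0.41 (adjusted p = 0.00806) in Eed KO organoids, and the receptor gene Ret by 1.38 ± 0.23 (adjusted p = 0.00719). The part of these transcripts in the values of the 9 genes was not tested. Markers of immune cells summed to 181.7, 162.3 and 72.6 CPM in Eed KO crypts 385_1, 385_2 and 440_1. They summed to 31.95 to 43.8 CPM in Ezh2 KO crypts and 78.9 to 80.1 CPM in WT crypts, and their part in these values was not tested. In organoids they summed to 2.26 to 6.07 CPM in Eed KO and 0.941 to 1.95 CPM in WT, with 5 of the 10 at 0 in Eed KO and 6 in WT, Cd3e, Cd3g, Itgax and Tyrobp in both. Markers of mesenchyme, muscle and endothelium summed to 91.4 to 142.7 CPM in Eed KO crypts and 83.04 to 277 CPM in Ezh2 KO crypts. WT crypts 385_1, 385_2 and 440_1 had 41.1, 90.2 and 482.3 CPM. Organoids had 10.4 to 13.7 CPM in Eed KO and 5.25 to 10.6 CPM in WT. The part of these markers was not tested either.

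Crypt base stem cell markers, 5 genes led by Lgr5 and Olfm4, summed to 692.5 to 1177 CPM in Eed KO crypts and 4352 to 4518 CPM in WT crypts, and Paneth cell markers to 9187 to 14940 CPM in Eed KO crypts and 59540 to 89870 CPM in WT crypts. These shifts stand beside the 5 genes that fell and the 2 that rose in Eed KO crypts, and their part in those changes was not tested. Enterocyte markers (8 genes) summed to 235.7, 444.4 and 2931 CPM in Eed KO crypts 385_1, 385_2 and 440_1. WT crypts had 743 to 2072 CPM, and the part of these markers was not tested either. In Ezh2 KO crypts, where Neurog3 overlapped WT, the stem cell sum was 3957 to 4560 CPM, overlapping WT, and the Paneth cell sum was 28710 to 50880 CPM, below every WT crypt.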

How the data were processed

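RNA-seq was available for 9 crypt and 4 organoid libraries. For each run there is a single table of unnormalized counts by gene, as deposited, keyed by Ensembl identifier per the file headers, and no column is pooled. Per the labels' protocols the library kit was strand-specific and selected mRNA. The submitters' processing notes list GRCm38 as build and, as tools, Bowtie 0.12.9, TopHat2 2.0.12, DESeq2 and HTSeq, whose roles are not given in the sources used here. Runs are those named by the 2 tables. Tables were joined on the 21420 shared identifiers, and no library lost more than 0.196% of its counts by this.

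Tests used edgeR 4.0.16 in R 4.3.3, the robust quasi-likelihood F test with TMM, the filterByExpr filter on low values (minimum 10 counts, 15 in total) and Benjamini-Hochberg adjustment over all genes at 0.05. All adjusted p-values are from it unless DESeq2 (1.42.0) is named. The 9 crypts entered a single model of group plus run (14406 genes, residual degrees of freedom 5), the organoids their own (12958 genes, 2), and the interaction and the WT tissues over all 13 libraries with run (14761 genes, 7). All 9 genes passed each filter. The scripts were tested on simulated data. Alternatives were other scalings, no filter, DESeq2, no run term, single runs, a replicate block and leaving out each library.

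Deviations from the group means of same-numbered Eed KO and WT crypts of a run had r = 0.166, 0.361 and 0.329. Eed KO 385_1 had a higher r with WT 385_2 (0.350) than with WT 385_1. With 2 libraries a group within run 385, the values there can only be equal and opposite (0.145 and -0.145). These r therefore cannot settle whether the numbers pair libraries. Blocked values are printed as an alternative where they change a call. CPM per kilobase used GENCODE M21 exon lengths. Overlaps with other genes came from the same annotation.

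The members and the gene lists were chosen with earlier results of these data known. By rule, the text names all 9 genes, the 3 genes most like each called member, and Eed and Ezh2. Listed genes were named from the 4 called genes with the largest fold per list and comparison. Not all of these are printed, so a named gene need not have the largest fold of its list. Egr3 and Nkx6-1 in organoids and Ucn3 in crypts are among those left out. Pax6os1, Nkx2-2os, Fam241b and Cerkl are named as neighbours, and Xist and Ddx3y for sex.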

Additional observations from a re-analysis of the deposited data

Results flagged for a closer look

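3 of the 9 genes were marked because the effect of Eed loss differed between organoids and crypts by a test of the difference itself (edgeR's quasi-likelihood test of the interaction over 13 libraries, Benjamini-Hochberg adjustment over 14761 genes). Pcsk1 differed by 2.73 on the log2 scale (adjusted p = 0.00116), with both Eed KO organoids above both WT organoids and all 3 Eed KO crypts below all 3 WT crypts. Insm1 differed by 1.76 (adjusted p = 0.0379), with a fold of 0.50 in organoids and -1.25 in crypts. Pax6 differed by 1.57 (adjusted p = 0.0403), with folds of 3.99 in organoids and 2.43 in crypts. Its Eed KO levels were alike, at 21.9 CPM in organoids and 22.1 CPM in crypts. The WT levels were not, at 1.36 CPM in organoids and 4.05 CPM in crypts. Induction time differed with the tissue, and within organoids, but not crypts, the strain label differed with genotype, as did the sex pattern there and within run 385 crypts. These cannot be told apart from the tissue difference.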

How the results depend on the processing

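Of 656 fold changes of the 9 genes recomputed under an alternative, 565 kept direction and call, 55 kept direction and lost the call, 12 gained it, and 24, none of them called, changed sign. For Eed KO against WT crypts, 1 gene was higher without the run term, within run 440 alone and with the replicate block (2 in the full fit), and 3 were lower within run 440 alone, 3 within run 385 alone and 2 with the block (5 in the full fit). Leaving out 1 library gave 1 to 2 higher and 2 to 5 lower there, 2 to 5 lower against Ezh2 KO, 1 to 3 higher for the tissue difference and 0 to 1 higher for WT organoids against WT crypts. The tissue difference had 1 gene higher with library totals and 5 with the DESeq2 Wald test, and WT organoids had 1 higher with that test. Library totals alone shifted the median of all genes by 0.21 (Eed KO against WT crypts), 0.12 (against Ezh2 KO), -0.13 (tissue difference) and 0.11 (WT tissues), and moved the means to 22.8 CPM for Pax6 in Eed KO organoids and, in WT crypts, to 7.71 for Neurod1, 8.11 for Nkx2-2 and 25.7 for Pcsk1. Among uncalled folds, Isl1 in Eed KO against WT crypts was -0.24 within run 440. Against WT, Ezh2 KO crypts had Neurog3 at 0.018 with library totals, 0.16 without the run term and 0.39 within run 440, Neurod1 at -0.13 and Rfx6 at -0.42 without the run term, and Rfx6 at -0.21 within run 440. Isl1 in Eed KO against Ezh2 KO was 0.010 with library totals and 0.065 without the run term. Insm1 in WT organoids against WT crypts was 0.0025 with DESeq2 size factors, 0.062 with library totals and 0.00072 by the Wald test. With 1 library left out, Isl1 ran from -0.10 to 0.59 (Eed KO against WT crypts) and -0.31 to 0.39 (against Ezh2 KO), Neurog3 from -0.83 to 0.029 and Insm1 from -0.27 to 0.38 (Ezh2 KO against WT), and in organoids Neurog3 from -0.51 to 0.11, Neurod1 from -0.17 to 0.61, Pax4 from -0.0074 to 0.58 and Nkx2-2 from -0.19 to 0.79. Insm1 in WT tissues ran from -0.13 to 0.18. The cause was not tested. In organoids, where 2 pairs share only a number (r = 0.259), the block gave 3 higher and 0 lower. Without WT crypt 440_1, Ezh2 KO against WT had 254 genes higher and 259 lower, against 0 and 3. Pax4 had 3 to 7 counts per Eed KO crypt, so depth limits it most.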

Other observations

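Several relatives of the 9 genes in their own families, which the text above leaves out, had no count in WT and many in Eed KO. Of 25 paralogs listed, 20 were in both count tables and 14 passed the low-count filter in crypts. Of these 14, 7 rose and 1 fell in Eed KO against WT crypts, beside 13.4% and 10.6% of all genes, with a median log2 fold change of 1.80. Pax9, Pax3 and Pax2 passed the filter through the Eed KO libraries alone. The count that rose and the median are therefore partly set by the filter and are a description only. Pax9, a paired-box factor of pharynx and skeleton, averaged 29.2 ± 4.88 CPM in Eed KO crypts, and WT crypts had no count, so it was at least 369-fold higher against a floor of 3 counts over the group. On the same floor Pax3, a factor of neural crest and muscle precursors, was at least 217-fold higher and Pax2, a factor of kidney and midbrain, at least 155-fold. Isl2, the closest relative of Isl1, had 120 counts in Eed KO crypts and 1 in WT crypts, a ratio of 110 with a 95% counting interval of 19.4 to 4381. Floor and interval cover counting error only, since PCR copies are not independent molecules. In organoids 5 of 11 rose in Eed KO and 0 fell, beside 13.5% and 4.63% of all genes. There 5 of the 11 had no count in 1 genotype and passed the filter through the other, so the same limit applies. Pax3 was at least 103-fold, Pax9 at least 41.8-fold, Nkx2-3 at least 39.2-fold and Pax2 at least 24.1-fold higher.

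Genes of pancreatic islets, where the same factors act, were also listed. Of 6 tested in Eed KO against WT crypts, 1 rose (Isl2) and 1 fell, beside 13.4% and 10.6% of all genes. Isl2 passed the low-count filter through the Eed KO libraries alone. Mnx1, a homeodomain factor of beta cells, averaged 2.69 ± 2.32 CPM in Eed KO crypts and 10.6 ± 1.58 CPM in WT crypts, a log2 fold change of -2.20 ± 0.34 (adjusted p = 0.00216, edgeR) that was not called within run 440 alone (-1.09, adjusted p = 0.0958). In organoids 4 of 7 rose in Eed KO and 0 fell, beside 13.5% and 4.63% of all genes. Of the 7, 1 had no count in 1 genotype and passed the filter through the other. Abcc8, the sulfonylurea receptor subunit of the beta cell potassium channel, averaged 8.43 ± 1.75 CPM in Eed KO organoids and 1.10 ± 0.499 CPM in WT organoids, a log2 fold change of 2.93 ± 0.40 (adjusted p = 0.0031). In Ezh2 KO crypts 0 of 14 paralogs and 0 of 6 islet genes were called by edgeR. Pax9 and Pax2 had no count in Ezh2 KO or WT crypts, so they could not be called there.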
